A study of Mus musculus with 5 samples.

Results

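The genes described here load and present antigen on MHC class I and on the class I-like molecules CD1d and MR1. They are B2m, Tap1, Tap2, Tapbp, Psmb8, Psmb9, Erap1, Cd1d1, Mr1 and H2-M3, 10 genes chosen by name. Of these, 9 had a row of the deposited table that carries their symbol alone, among 12267 such genes in all, and each of the 9 had 1 such row. Both rows that hold Cd1d1 also carry a second symbol, so Cd1d1 was not analysed here. The samples were CD4SP thymocytes, cells that carry CD4 without CD8, sorted by flow cytometry from C57BL/6J mice between 4 and 6 weeks of age and hybridised to Affymetrix mouse exon arrays. The 3 PLZF transgenic arrays came from mice that carry a PLZF transgene. PLZF is a transcription factor with zinc fingers, and NKT cells and other innate-like T cells need it to acquire their effector program. The 2 wild type arrays came from mice without it, and no treatment is named for either genotype. Every array is labelled a biological replicate and stands for cells of pooled mice, so the spread given here is that between pools. Which promoter drives the transgene is not given in the sources used here, and the series title concerns transcriptional control by PLZF in developing NKT cells. The design sets the transgenic CD4SP cells against the wild type ones.

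Class I molecules show peptides from inside the cell to CD8 T cells and are made by nearly all nucleated cells. Proteasomes cut proteins into peptides, the TAP transporter carries these into the endoplasmic reticulum, tapasin bridges TAP to the waiting class I molecule, and the aminopeptidase ERAP1 trims the peptides to fit. CD1d and MR1 share the light chain encoded by B2m but present lipids and vitamin B metabolites. In the thymus they select NKT cells and mucosal-associated invariant T cells, the lineages for which PLZF is best known.

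Across the arrays the median intensity lay between 59.0 and 60.3. Log2 values correlated at r = 0.998 between transgenic arrays and r = 0.996 between the wild type arrays, over genes, which are not independent replicates. Of 12267 genes tested, 581 (4.74%) passed a Benjamini-Hochberg adjusted p of 0.05 in limma, 211 of them (1.72%) higher and 370 (3.02%) lower in transgenic cells. The higher genes made up 36.3% of the calls, 46.6% after cyclic loess and 51.1% after quantile normalization. Zbtb16, which encodes PLZF, was not analysed here, nor were Cd4 and Cd8a, so neither the genotype nor the sort could be checked on its own gene. The 7 measured T cell markers had a summed intensity of 14280 to 14570 in transgenic arrays and 15910 to 16360 in wild type arrays, and Cd5 and Cd28 fell. No marker of another cell type was listed at 0, but the intensities carry background, so that does not show such cells were present. The summed intensity of 6 B cell markers was 412 to 438 in transgenic and 403 to 411 in wild type arrays. That of 7 macrophage, monocyte or dendritic cell markers was 1509 to 1542 and 1465 to 1674. The 9 thymic epithelium markers summed to 1217 to 1229 and 1288 to 1326. Of these 9, Ly75 was the largest part, at 524, 536 and 544 in transgenic and 575 and 633 in wild type arrays. The 4 markers of double-positive or CD8 thymocytes summed to 640 to 707 in transgenic and 776 to 778 in wild type arrays, and the 6 of NK or NKT cells to 836 to 936 and 720 to 780. Among these marker lists, Fasl rose and Prss16 fell. Fasl was at 244, 297 and 322 in transgenic and 99.6 and 107 in wild type arrays. That gap is wider than the gap in the NK or NKT sum, so the sum does not describe the list as a whole. Prf1, of the NK or NKT list and chosen with its values known, was lower by an amount that did not pass (-1.02 on the log2 scale, limma adjusted p = 0.0695). No erythroid marker was analysed here. The part of other cell types in the results below was not tested, and in sorted bulk cells a change in the share of a cell type and a change in RNA per cell cannot be told apart.

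The sequences around 3 gene starts are shown for the members the results turn on. Erap1 is the member past the threshold, B2m encodes the chain that all class I molecules share, and Tap1 and Psmb9 are transcribed away from each other from a common stretch of the MHC on chromosome 17. The windows come from RefSeq (GRCm38.p6), each with 250 bases before and 50 after a start, and 8 of the 10 genes had one. In the first 2, capitals mark matches on either strand to the letters GAAANNGAAA, the core of the interferon-stimulated response element, TTCNNNGAA, the element bound by STAT factors, or GGGNNNNNCCC, a pair of half-sites of the NF-kappaB type. In the third, capitals run from the start of Psmb9, on the minus strand, to the start of Tap1.
Erap1 (chr13:74639603-74639902, plus strand): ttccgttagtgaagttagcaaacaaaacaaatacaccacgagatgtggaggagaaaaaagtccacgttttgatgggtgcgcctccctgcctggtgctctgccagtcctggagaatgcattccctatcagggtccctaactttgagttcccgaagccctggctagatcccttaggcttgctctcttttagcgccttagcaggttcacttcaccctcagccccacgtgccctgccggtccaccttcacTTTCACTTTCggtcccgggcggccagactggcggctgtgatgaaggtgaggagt
B2m (chr2:122147437-122147736, plus strand): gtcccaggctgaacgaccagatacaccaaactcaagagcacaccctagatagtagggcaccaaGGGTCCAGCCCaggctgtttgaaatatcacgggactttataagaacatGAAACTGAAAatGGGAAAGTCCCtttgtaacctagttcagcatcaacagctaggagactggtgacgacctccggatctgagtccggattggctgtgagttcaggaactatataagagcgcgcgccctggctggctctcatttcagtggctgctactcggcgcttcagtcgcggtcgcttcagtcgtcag
Tap1 and Psmb9 (chr17:34187306-34187605, plus strand): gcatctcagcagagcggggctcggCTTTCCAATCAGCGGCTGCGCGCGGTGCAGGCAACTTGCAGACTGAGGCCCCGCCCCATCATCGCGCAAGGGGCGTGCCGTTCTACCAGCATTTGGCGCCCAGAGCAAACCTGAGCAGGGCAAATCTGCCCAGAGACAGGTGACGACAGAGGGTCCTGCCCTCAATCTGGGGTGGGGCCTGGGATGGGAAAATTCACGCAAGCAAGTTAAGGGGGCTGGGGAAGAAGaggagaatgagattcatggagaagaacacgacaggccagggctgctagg
The starts of Psmb9 and Tap1 lie 226 bases apart, and 275 of the 300 bases of each window are shared. The interferon element core was present in the windows of Erap1 and B2m, 2 of 8, and in 3.44% of all 32851 promoter windows of the table. The STAT element letters were in the windows of Psmb8 and H2-M3 and in 8.30% of all windows. The NF-kappaB type letters were in those of B2m, Tap1 and Psmb9, the last 2 being the same shared bases, and in 14.0% of all windows. In B2m the interferon core (GAAACTGAAA) ends 2 bases before an NF-kappaB type match (GGGAAAGTCCC). These matches describe letters and do not show binding.

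Erap1 was the member of the pathway that rose in PLZF transgenic CD4SP cells, by 21.4%. The other 8 measured members, among them the shared light chain B2m, the MHC class I-like gene Mr1 and the peptide transporter genes Tap1 and Tap2, did not pass the test, and none fell. All 9 had a positive change, with a median of 0.14 on the log2 scale and a range from 0.012 to 0.28, whereas the median change over all genes was 0 and 47.2% of genes had a positive change. Of all genes, 1455 had no difference. The positive share of all genes was 60.3% after cyclic loess, 61% after median centring and 67.7% after quantile normalization. Of the 9 members, 1 was called higher, beside 1.72% of all genes. In 4 members (Erap1, B2m, Mr1 and Tapbp) each transgenic array lay above both wild type arrays, beside 12.6% of all genes, and those 4 are the members with 5 different values. Among the 4027 genes with 5 different values, the share was 27.8%. All 9 members passed the filter on dim genes.

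**Figure D1:**
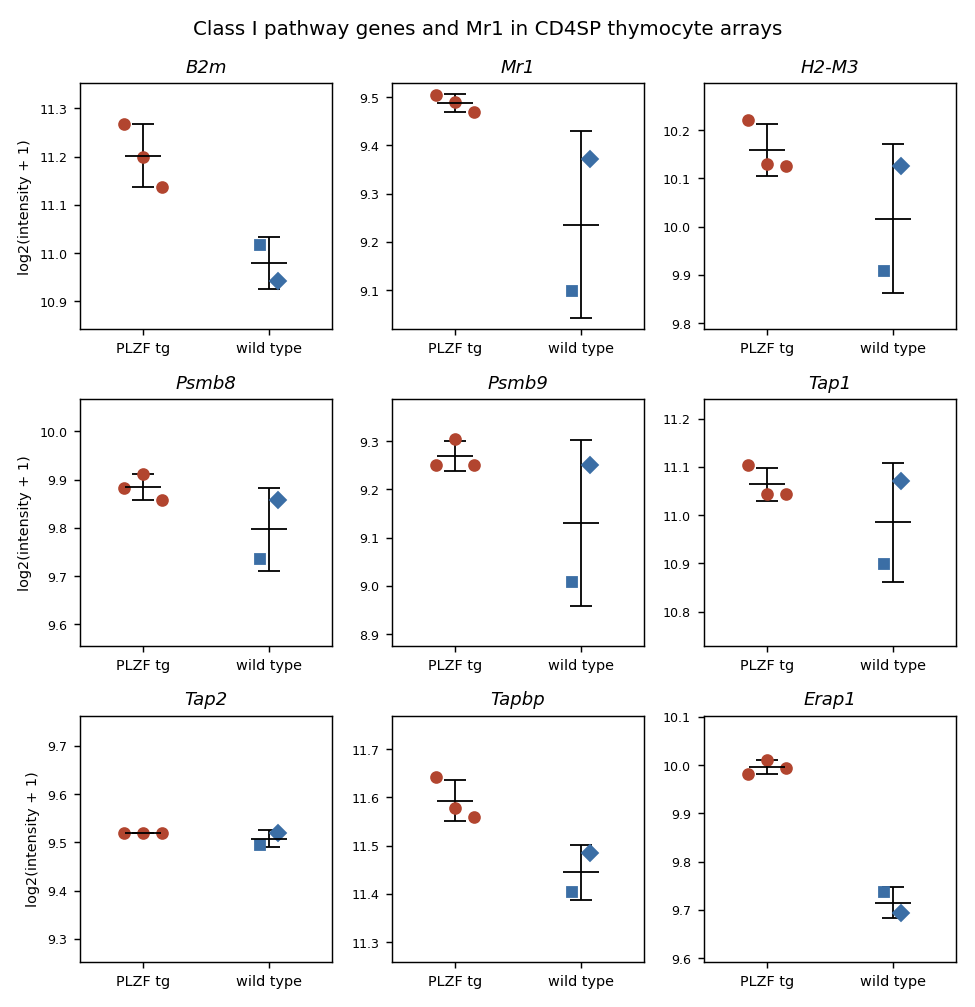
Log2(intensity + 1) of the 9 measured genes in the 3 PLZF transgenic arrays (red circles) and the 2 wild type arrays (blue, square for replicate 1 and diamond for replicate 2), with group means and SD as bars and 1 scale length in all panels. Erap1, B2m, Mr1 and Tapbp show no overlap between genotypes, and in Mr1, H2-M3, Psmb8, Psmb9, Tap1, Tap2 and Tapbp the lowest point is wild type replicate 1.

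Erap1 encodes the aminopeptidase that trims the ends of peptides in the endoplasmic reticulum before class I molecules bind them. Its intensity was 1010, 1031 and 1019 in the transgenic arrays and 853 and 826 in the wild type arrays. The genotypes did not overlap, and the 3 transgenic arrays lay closer together than the gap to either wild type array. On the log2(intensity + 1) scale the means were 9.996 ± 0.015 (SD, n = 3) in transgenic and 9.72 ± 0.032 (SD, n = 2) in wild type cells. The change was 0.28 ± 0.019 (SE), with a limma adjusted p of 0.0192. Its size moved little when an array was left out, from 0.26 to 0.30, but the call did not hold without any 1 of the transgenic arrays, with limma adjusted p values of 0.0996, 0.103 and 0.122 without replicates 1, 2 and 3. It also did not hold with array weights (0.134) or the replicate block (0.253), and over 15 other settings the adjusted p ran from 0.00928 to 0.253.

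B2m encodes the light chain of class I molecules, CD1d, MR1 and H2-M3. Its intensity was 2466, 2351 and 2251 in the transgenic arrays and 2072 and 1966 in the wild type arrays. All transgenic values were above both wild type values, though the transgenic arrays themselves spread over more than the gap to the nearer wild type array. The log2 means were 11.20 ± 0.066 (SD, n = 3) in transgenic and 10.98 ± 0.054 (SD, n = 2) in wild type cells. The difference of 0.22 ± 0.052 (SE) had a 95% interval, not adjusted for the number of genes, of 0.068 to 0.38 and a limma adjusted p of 0.155. It passed in none of the 15 other settings, where the adjusted p ran from 0.0522 to 0.626.

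Mr1 encodes the class I-like molecule that presents vitamin B metabolites to mucosal-associated invariant T cells. It had intensities of 725, 718 and 707 in the transgenic arrays and 547 and 662 in the wild type arrays. The transgenic arrays were close together and above both wild type arrays, which differed from each other by more than wild type replicate 2 differed from the transgenic arrays. The log2 change was 0.25 ± 0.095 (SE), with a 95% interval of -0.028 to 0.53 and a limma adjusted p of 0.356. Against wild type replicate 1 alone the change was 0.39 and passed the test (limma adjusted p = 0.0119), on the assumption that the lone array varies like the transgenic ones. Against replicate 2 alone it was 0.12.

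H2-M3 encodes a class I-like molecule that presents formylated peptides of bacteria and mitochondria. Its intensity was 1193, 1120 and 1116 in the transgenic arrays and 960 and 1116 in the wild type arrays. Wild type replicate 2 had the same value as transgenic replicate 3, so the groups met, and wild type replicate 1 stood below. The log2 change was 0.14 ± 0.084 (SE), with a 95% interval of -0.10 to 0.39 and a limma adjusted p of 0.458. It was 0.25 against wild type replicate 1 alone and 0.034 against replicate 2 alone.

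The immunoproteasome subunits encoded by Psmb8 and Psmb9, which replace constitutive subunits when a cell is exposed to interferon gamma, had small differences. Psmb8 had intensities of 943, 962 and 927 in the transgenic arrays and 852 and 927 in the wild type arrays. Psmb9 had 608, 631 and 608 in the transgenic arrays and 514 and 608 in the wild type arrays. For both genes wild type replicate 2 shared its value with a transgenic array and wild type replicate 1 was the lowest of the 5. The log2 changes were 0.087 ± 0.046 (SE) for Psmb8 and 0.14 ± 0.086 (SE) for Psmb9, both with a limma adjusted p of 0.458. Their 95% intervals were -0.048 to 0.22 and -0.12 to 0.39. Against wild type replicate 1 alone the changes were 0.15 for Psmb8 and 0.26 for Psmb9, and against replicate 2 alone 0.026 and 0.018. Psmb6, the constitutive subunit that Psmb9 replaces, had a change of -0.039 (limma adjusted p = 0.458), and Psmb7, another constitutive catalytic subunit, of -0.065 (0.468). Psmb6 and Psmb7 were named after their values were seen.

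Tap1 and Tap2 encode both chains of the transporter that moves peptides into the endoplasmic reticulum. Tap1 had intensities of 2200, 2111 and 2111 in the transgenic arrays and 1907 and 2151 in the wild type arrays. Wild type replicate 2 lay inside the transgenic range. The log2 change of Tap1 was 0.079 ± 0.065 (SE), with a 95% interval of -0.11 to 0.27 and a limma adjusted p of 0.504. Tap2 was listed at 733 in all 3 transgenic arrays and in wild type replicate 2, and at 720 in wild type replicate 1. Its log2 change was 0.012 ± 0.0089 (SE), with a 95% interval of -0.014 to 0.039 and a limma adjusted p of 0.458. The SE and interval of Tap2 rest on a value that is identical in 4 of the 5 arrays. Tapbp encodes tapasin, which holds class I molecules at the transporter until a peptide is bound. It had intensities of 3193, 3055 and 3018 in the transgenic arrays and 2708 and 2865 in the wild type arrays. All transgenic arrays were above both wild type arrays, with a log2 change of 0.15 ± 0.041 (SE), a 95% interval of 0.029 to 0.27 and a limma adjusted p of 0.207.

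The 2 wild type arrays were not alike in these genes. Wild type replicate 1 had the lowest of the 5 values in 7 of 9 members, the exceptions being B2m and Erap1, and in 2704 of all 12267 genes. The mean log2 value of the 9 members was 10.26, 10.24 and 10.22 in the transgenic arrays and 10.03 and 10.15 in wild type replicates 1 and 2. The median change of the members was 0.19 against wild type replicate 1 alone and 0.034 against replicate 2 alone. Against replicate 2 alone, 7 of 9 members had a positive change, Tap1 a negative one (-0.0074) and Tap2 none. Members past the threshold numbered 3 against replicate 1 alone (Erap1, Mr1 and Tap2) and 1 against replicate 2 alone (Erap1), in fits that called 15.1% and 23.6% of all genes.

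**Figure D2:**
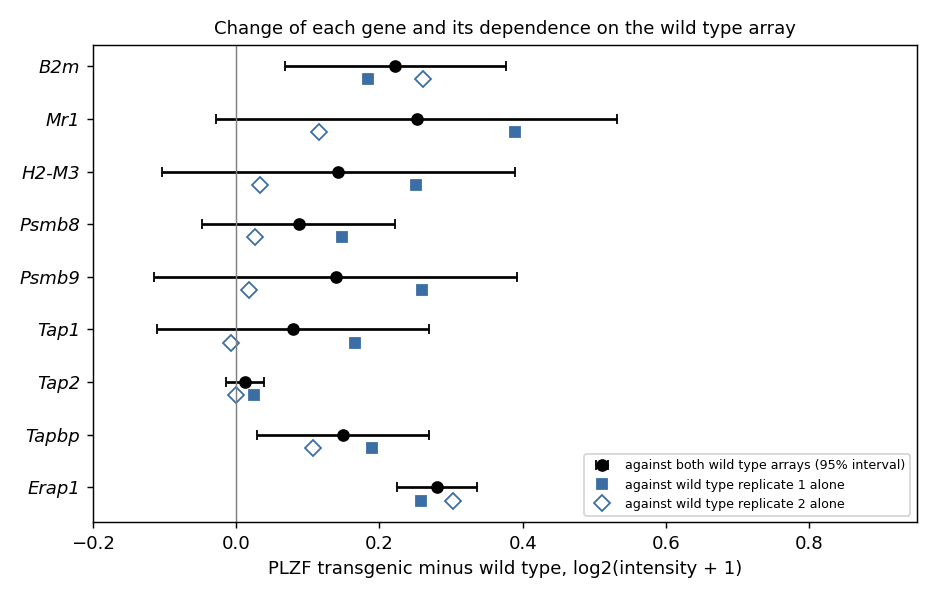
Change of each gene, PLZF transgenic minus wild type on the log2(intensity + 1) scale, against both wild type arrays (black, with the 95% interval of the limma fit) and against each wild type array alone (filled squares, replicate 1; open diamonds, replicate 2). Erap1 stays between 0.26 and 0.30 whichever wild type array is used, whereas H2-M3, Psmb8, Psmb9, Tap1 and Tap2 lie between -0.0074 and 0.034 against replicate 2.

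By the root mean square distance between centred log2 values over the 5 arrays, the genes with the pattern most like that of Erap1 were Tmem64 (distance 0.013), Lpar6 (0.021) and Ppp1r12a (0.023). Each of the 3 rose, with log2 changes of 0.27, 0.25 and 0.24 and limma adjusted p values of 0.00904, 0.00812 and 0.0200. For Mr1 the nearest were Nudt12 (0.019), H2-Oa (0.022), which encodes a chain of the class II accessory molecule H2-O, and Hadh (0.025). None of those 3 passed the test (limma adjusted p of 0.329, 0.425 and 0.259). The 5 arrays were also those of the test, so nearness here restates a similar difference between genotypes.

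Among the genes that handle lipids and vesicle traffic for CD1d, Gm2a and Npc2 fell and Cd74 rose. Of 29 listed, 14 were measured, of which 1 was called higher and 2 lower, beside 1.72% and 3.02% of all genes. The median log2 change of the 14 was 0.021. Gm2a encodes the GM2 activator, a lysosomal protein that lifts glycolipids out of membranes and can exchange lipids on CD1d. Its intensity was 2037, 2245 and 2035 in the transgenic arrays and 3231 and 3418 in the wild type arrays, 0.633 times the wild type level (log2 change -0.66 ± 0.063, SE, limma adjusted p = 0.0316). Npc2 encodes a lysosomal carrier of cholesterol. It had intensities of 791, 865 and 794 in the transgenic arrays and 1156 and 1221 in the wild type arrays, 0.687 times the wild type level (-0.54 ± 0.057, SE, limma adjusted p = 0.0379). For both genes the genotypes lay well apart compared with the spread inside each.

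Cd74 encodes the invariant chain, which guides class II molecules, and in part CD1d, to endosomes. Its intensity was 594, 514 and 511 in the transgenic arrays and 270 and 301 in the wild type arrays. Transgenic arrays were 1.89-fold higher, with a log2 change of 0.92 ± 0.10 (SE) and a limma adjusted p of 0.0409. B cells and dendritic cells also make Cd74. The summed B cell markers given above were 412 to 438 in transgenic and 403 to 411 in wild type arrays, which do not overlap. Of these 6 markers, 5 had a positive change and 1 a negative one, and no change passed the test. Means under the 25th percentile over genes were found in 2 of the 6, and the highest, Cd79b, was at percentile 51. Much of that sum can therefore be background. The summed macrophage, monocyte or dendritic cell markers were 1509 to 1542 in transgenic and 1465 to 1674 in wild type arrays, which overlap. Most of that sum is Ctss, at 1042, 1058 and 1046 in transgenic and 952 and 1023 in wild type arrays. Of these 7 markers, 2 had a positive change, 4 a negative one and 1 none, and no change passed the test. Whether such cells contribute to the change was not tested. The fourth gene of this list by size of change, Ctsl, which encodes cathepsin L, had -0.27 ± 0.11 (SE, limma adjusted p = 0.420). That change ran from -0.43, past the threshold without wild type replicate 1 (limma adjusted p = 0.0368), to -0.11 without replicate 2. Gm2a, Npc2 and Cd74 lost the call without any 1 transgenic array, without wild type replicate 2, with array weights and with the replicate block, Npc2 and Cd74 also with a trend and robust fit, and Cd74 without wild type replicate 1. Over the 15 other settings their limma adjusted p values reached 0.462, 0.516 and 0.431. Leaving out 1 array in turn, the log2 change ran from -0.71 to -0.62 for Gm2a, from -0.58 to -0.50 for Npc2 and from 0.84 to 0.99 for Cd74.

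**Figure D3:**
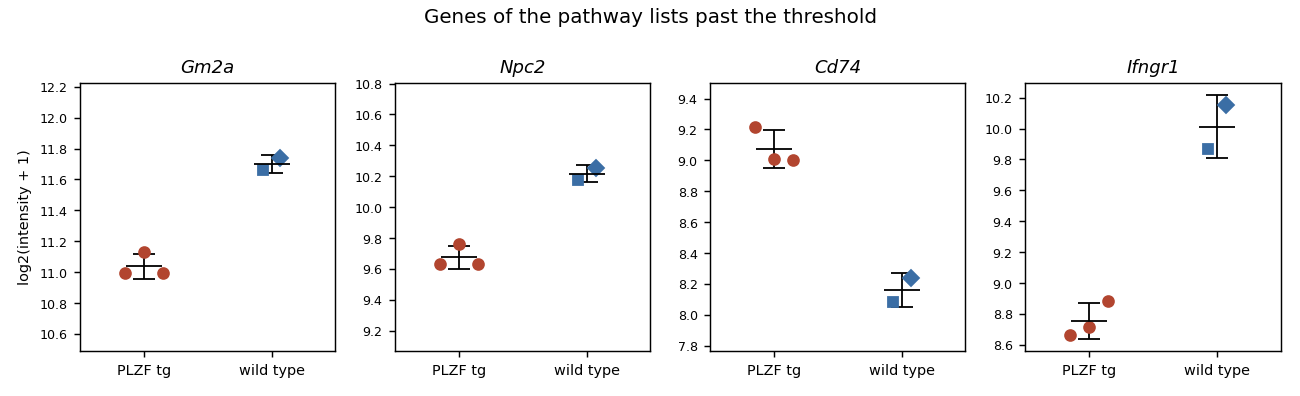
Log2(intensity + 1) of Gm2a, Npc2, Cd74 and Ifngr1, the genes of the pathway lists past an adjusted p of 0.05, in the 3 PLZF transgenic arrays (red circles) and the 2 wild type arrays (blue, square for replicate 1 and diamond for replicate 2), with group means and SD as bars. Gm2a, Npc2 and Ifngr1 are lower and Cd74 is higher in every transgenic array than in either wild type array.

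Of 30 listed receptors, kinases and transcription factors through which class I genes are controlled, 20 were measured, 1 fell and none rose, a share near the 3.02% lower and 1.72% higher among all genes, with a median log2 change of -0.043. The gene that fell was Ifngr1. It encodes the receptor chain that binds interferon gamma, a main inducer of class I genes. Its intensity was 405, 419 and 471 in the transgenic arrays and 933 and 1140 in the wild type arrays, with no overlap. The transgenic level was 0.418 times that of wild type, a log2 change of -1.26 ± 0.13 (SE, limma adjusted p = 0.0350). Irf1, a transcription factor that binds the interferon response element in class I promoters, had intensities of 1066, 1033 and 961 in the transgenic arrays and 800 and 875 in the wild type arrays. These did not overlap, but the change of 0.28 ± 0.069 (SE) did not pass (limma adjusted p = 0.165), except among the genes with 5 different values (0.0480). Jak1, a kinase of interferon receptors, had -0.27 ± 0.073 (SE, limma adjusted p = 0.196) and passed in 0 of 15 other settings. Jak2 of the same list, named after its values were seen, was higher without overlap (0.14 ± 0.021, SE, limma adjusted p = 0.0652). It passed in 3 of 15 other settings. Nfyc, a subunit of the NF-Y factor that binds class I and class II promoters, had 0.49 ± 0.41 (SE, limma adjusted p = 0.519), its values overlapped between genotypes, and its change was 0.14 to 0.85 with 1 array left out. Ifngr1 did not pass without any 1 transgenic array, with array weights or with the replicate block (limma adjusted p up to 0.319), and leaving out 1 array at a time gave log2 changes between -1.40 and -1.11.

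None of the 25 measured genes of peptide supply and class I assembly, of 40 listed, passed the threshold in limma, and 6 had an unadjusted p under 0.05, beside 16.8% of all genes. Their median log2 change was 0.032, with 14 positive, 8 negative and 3 without a difference. Canx encodes calnexin, the chaperone that folds newly made class I heavy chains. It had intensities of 3134, 3028 and 2947 in the transgenic arrays and 2536 and 2618 in the wild type arrays. The groups did not overlap, and the change of 0.24 ± 0.035 (SE) had a limma adjusted p of 0.0656. It passed after quantile normalization (0.0295), cyclic loess (0.0367), median centring (0.0272) and the dim filter (0.0463), and among genes with 5 different values (0.0352), in a range up to 0.626 over 15 settings. Uggt1 of the same list, named after its values were seen, was lower without overlap (-0.14 ± 0.017, SE, limma adjusted p = 0.051). It passed in 1 of 15 other settings, the dim filter (0.0365). Pdia3, the disulfide isomerase ERp57 of the loading complex, had a change of 0.15 ± 0.028 (SE, limma adjusted p = 0.101). Its change was 0.109 against wild type replicate 1 alone and 0.185 against replicate 2 alone. The structural proteasome subunits Psmb2 and Psmb3 differed in sign, with 0.15 ± 0.063 (SE, limma adjusted p = 0.407) and -0.17 ± 0.042 (SE, 0.181). With 1 array left out Psmb2 had 0.081 to 0.22.

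Other class I heavy chains and class I-like genes gave no call. Of 36 listed, 14 were measured, and none passed the threshold or an unadjusted p of 0.05 in limma. Their median log2 change was 0.0019. H2-K1 and H2-D1, which encode the classical heavy chains, were not analysed here. Most of the 14 are genes of the H2-M region and 10 had means under the 25th percentile over genes, a range in which background can hide a difference. The members with the largest values were H2-M2 (0.20 ± 0.095, SE), H2-M10.6 (-0.15 ± 0.15), H2-M9 (0.15 ± 0.28) and H2-M10.2 (-0.10 ± 0.093), with limma adjusted p values of 0.458, 0.594, 0.811 and 0.545. With 1 array left out in turn these ranged from 0.090 to 0.31 for H2-M2, from -0.23 to -0.032 for H2-M10.6, from -0.12 to 0.41 for H2-M9, whose sign thus turned, and from -0.16 to -0.033 for H2-M10.2.

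**Figure D4:**
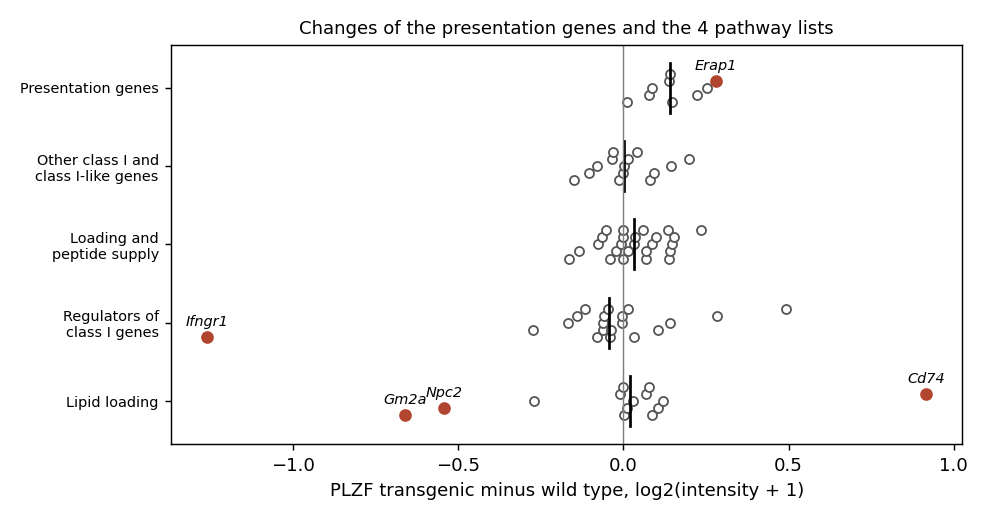
Changes, PLZF transgenic minus wild type on the log2(intensity + 1) scale, of the 9 measured presentation genes and of the 4 pathway lists, with 1 point a gene, the median of each list as a black line, and genes past an adjusted p of 0.05 filled and named. Erap1, Ifngr1, Gm2a, Npc2 and Cd74 are the filled points.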

How the data were processed

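For each of 5 arrays, the table the authors deposited gives linear intensity. Per the submitters' processing notes, the tools were Affymetrix Expression Console and RMA, with build mm9 (no versions named). RMA in its usual form equalises the distributions of arrays, so a change common to most genes would not be seen. Of 65529 rows, 14011 had 1 gene symbol in the platform annotation, 864 had several and 50654 had none. The row with the highest mean was kept for each of the 1257 genes with several rows. The planned fallback for linear values, log2(intensity + 1), was fitted without a level filter by lmFit and eBayes (limma 3.58.1, R 4.3.3; 3 residual and 0.5 prior degrees of freedom), with p values adjusted by Benjamini and Hochberg over 12267 genes. Values within 0.000005 on the log2 scale were called identical, and 32.8% of genes had 5 different values. The number of arrays limits the precision. The procedure was tested on simulated data. The members and lists were chosen with earlier results of these data known. All members were named, and of each list the genes past the threshold plus, up to 4 in all, those with the largest change. Other genes named with their values known are stated as such. The 2 members with the largest change were set against all genes by distance over the arrays. Alternatives were other normalizations, a missing pseudocount, the mean of rows, a dim filter at the 25th percentile, a trend with robust fit, array weights, the replicate block, each array left out, all rows, and, chosen after seeing the data, genes with 5 different values.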

Additional observations from a re-analysis of the deposited data

How the results depend on the processing

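The number of genes called was 581, against 1130 after quantile normalization, 1089 after cyclic loess, 1043 of the 4027 genes with 5 different values, 202 over all rows, 1 with array weights and 0 with the replicate block (limma; 1010 and 1917 genes at an unadjusted p under 0.05 in these last 2). It ran from 4 to 2890 with 1 array left out. Presentation genes called were 1 of 9, 0 with array weights, 0 with the replicate block (2 at an unadjusted p under 0.05 in each), and 0 to 3 with 1 array left out. Lipid loading genes called were 3, against 1 with a trend and robust fit, 0 with array weights and 0 with the replicate block, and 0 to 5 with 1 array left out. Regulators called were 1, against 2 after quantile normalization, median centring or the dim filter or among genes with 5 different values, 0 with array weights and 0 with the replicate block, and 0 to 8 with 1 array left out. Loading and peptide supply genes called were 0, against 2 after quantile normalization or the dim filter and 1 after cyclic loess, median centring or among genes with 5 different values, and 0 to 5 with 1 array left out. Other class I genes called were 0, and 0 to 2 with 1 array left out. Where 1 wild type array was left, genes whose transgenic values are identical passed readily, as Tap2 did.

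Leaving out 1 array gave Tap1 changes between -0.0074 and 0.17. Without wild type replicate 1 it was -0.0074, the one reversal, that of Tap2 was 0, and the other 7 members stayed positive. Every member had a positive change in the remaining settings that measured it. The same replicate numbers do not pair the samples by any label. Deviations from the group means correlated over genes at 0.139 for replicates 1 and at 0.048 for replicates 2. Transgenic replicate 3 and wild type replicate 2, which share no number, had 0.091. With 2 wild type arrays their deviations are equal and opposite, so these values cannot decide on a pairing. The block left 1 transgenic array without a partner.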
